A study of Mus musculus with 18 samples.

Results

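The genes described here are those whose response to loss of Zfp541 differed, or did not differ, between spermatocytes isolated at postnatal day 18 (P18) and the whole testis of the same age. The difference of differences, (spermatocyte KO − Het) − (testis KO − Het), called the interaction below, was taken on the log2 scale for 19930 genes in the 12 P18 libraries of a series of 18. The 4 groups had 3 libraries each. They were spermatocytes and testicular cells of male C57BL/6J mice that were either Zfp541+/- (Het) or Zfp541-/- (KO). The controls thus carried 1 mutant allele, and no wild-type group was among the samples. The remaining 6 libraries came from P14 testis of both genotypes. They took no part in choosing any gene and are used below as separate measurements. The labels call the replicates biological without naming animals, so p-values measure the spread between these libraries. The libraries were made from poly(A) RNA. How the spermatocytes were isolated is not given in the sources used here.

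ZFP541 is a zinc-finger protein of the nuclei of male germ cells that is found in histone deacetylase complexes together with KCTD19, and male mice without it are sterile with an arrest in meiotic prophase. Whole testis at this age is a mixture of Sertoli, Leydig, peritubular and blood-derived cells with germ cells up to the last stages of meiotic prophase. A transcript that is lost from spermatocytes can therefore still be measured in the tissue when other cells also make it. In bulk RNA, fewer cells of a type and less RNA per cell cannot be told apart.

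Levels are RPKM in spermatocytes and FPKM in testis (reads or fragments scaled to gene length and library depth), rescaled over the 12 libraries, and are given in the order of the replicate numbers. The files of the fractions were normalized separately before deposit, so a level set across fractions is a description. A constant factor of a gene that differs between the files cancels in the interaction at levels well above the pseudocount of 0.5, and only in part at low levels. Differences are log2(value + 0.5) ± SE from limma, with p-values adjusted by Benjamini-Hochberg over all 19930 genes. A difference is called, or said to have risen or fallen, when its adjusted p was under 0.05.

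Zfp541 itself (chromosome 7, 16061814 to 16096334, GRCm38) was lower in the KO libraries of both fractions. Its levels were 39.5, 32.8 and 58.3 in Het and 13.9, 12.4 and 12.5 in KO spermatocytes. In testis they were 26.3, 22.6 and 20.9 in Het and 11.4, 9.31 and 10.6 in KO. The groups did not overlap in either fraction, and transcript of the gene remained in every KO library. The interaction of Zfp541 was −0.55 ± 0.25 and was not called by limma (adjusted p = 0.327). None of 6 genes of partner proteins had a called interaction, which is near the 1.28% of all genes that had one. The largest of the 6 interactions was that of Kctd19, −0.34 ± 0.30 (adjusted p = 0.652). Kctd19 fell in both fractions (−1.76 ± 0.21 in spermatocytes and −1.42 ± 0.21 in testis).

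The spermatocyte libraries held few transcripts of somatic cells, and their depth was 9.26 to 18.3 M reads (M stands for mega) against 12.8 to 16.9 M in testis. The summed level of 32 Sertoli cell markers was 79.9 to 181 in the spermatocyte libraries and 2201 to 3464 in the testis libraries. For 16 Leydig cell markers it was 13.3 to 20.4 against 208 to 342. None of the Sertoli markers was at 0 in any spermatocyte library, while 1 to 6 of the Leydig markers were. Markers of peritubular myoid cells were less depleted (103 to 377 against 293 to 519) and varied more between spermatocyte libraries than the Sertoli and Leydig markers. The Het libraries differed in their content of late prophase RNA. Over 43 genes of the axoneme and cilium, a programme switched on late in meiotic prophase, the mean log2 level was 3.73, 3.6 and 4.61 in Het spermatocytes and 3.65, 3.21 and 2.72 in Het testis. Het spermatocyte replicate 3 thus held the most and Het testis replicate 3 the least of this RNA, and results are also given without this pair of libraries where that changes them.

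Of 19930 genes, 256 (1.28%) had a called interaction, of which 244 (1.22%) were negative and 12 (0.0602%) were positive. At an unadjusted p under 0.05 there were 2625 negative and 445 positive genes, but this split did not hold throughout. It was 1716 and 1743 on the values as deposited, and without Het spermatocyte replicate 2 it turned to 1729 negative and 2441 positive. Among called interactions the negative ones were still the more frequent without that library, at 76 against 23. KO spermatocytes differed from Het in 4604 lower genes (23.1%) and 3387 higher genes (17.0%). KO testis differed in 4106 genes (20.6%), of which 2374 were lower (11.9%) and 1732 higher (8.69%). The split of the calls depended on scaling. On the values as deposited it was 4044 lower and 5322 higher in spermatocytes, 2845 and 1047 in testis, and 232 and 58 for the interaction. With trimmed means within each fraction it was 5208 and 2523 in spermatocytes and 2831 and 563 in testis. The median of all genes was 0.01 in spermatocytes, 0.13 in testis and −0.10 for the interaction, so values near these are those of a typical gene. Scaling moved the last of these medians, which was 0.04 on the values as deposited and −0.03 with median-of-ratios factors. It was 0.05 in the fit without Het spermatocyte replicate 2. Across genes the differences of the fractions had a Pearson r of 0.84 and a Spearman rho of 0.66, with 76.3% of genes of the same sign. Genes share libraries and are not independent replicates, so no p is given. Of 2231 genes called lower in both fractions, 1951 had the larger fall in spermatocytes.

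**Figure D1:**
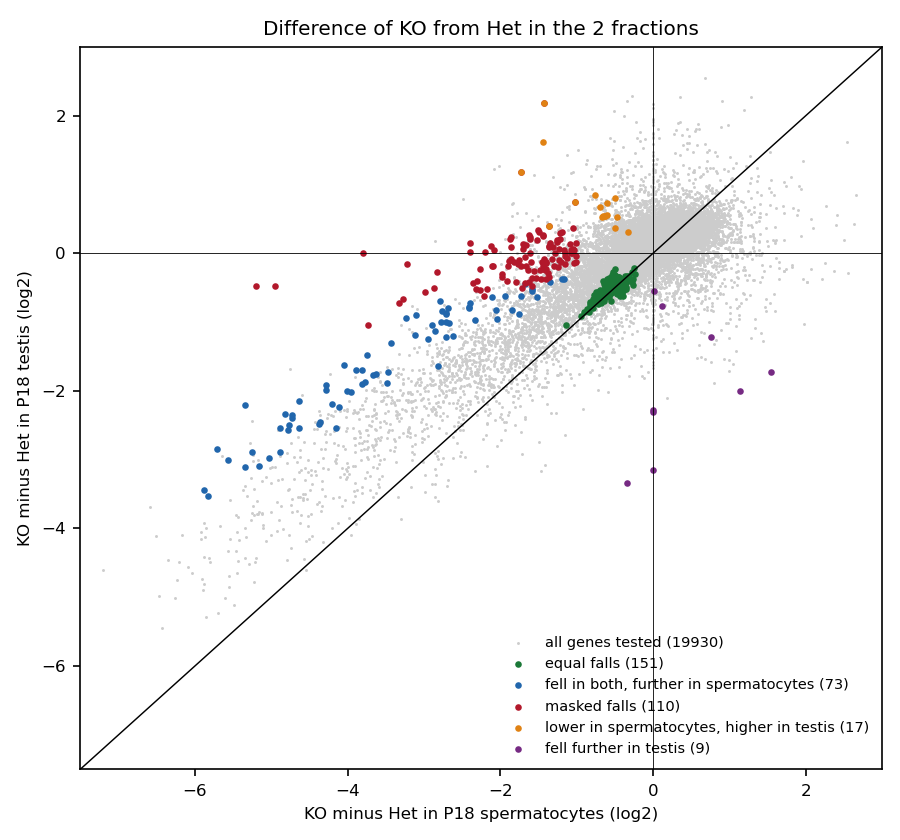
Each point is 1 of 19930 genes, with the log2 difference of KO from Het in P18 spermatocytes on the horizontal and in P18 testis on the vertical axis. The diagonal marks equal differences. The 110 masked falls (red) scatter around 0 on the testis axis (−1.04 to 2.18), the 151 equal falls (green) on the diagonal, and most genes that fell lie between the diagonal and the horizontal line.

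A fall was classed as masked when the gene fell in spermatocytes by at least 1 on the log2 scale, the interaction was called and negative, and the testis difference was not called lower. The calls choose these genes, so their differences at P18 are a description. Of 2402 genes that fell by at least 1 in spermatocytes (12.1% of genes tested), 110 were masked (0.552% of genes tested), and 94 of these were protein-coding. Their median level went from 8.81 in Het to 2.14 in KO spermatocytes and from 12.8 to 12.4 in testis. The median differences were −1.57 in spermatocytes and −0.10 in testis. In 66 of them (0.331%) the 95% interval of the testis difference lay wholly above −0.58, a fall of about 1.5 times. This bounds the fall in the tissue libraries. Among the masked genes plotted by library below, only Cerk, Paqr8, Slc41a3, Capns1 and Sgpp1 had this bound. For Efhd1, Gramd1b, Optn, Dusp15, Slc47a2, Zdhhc12 and Rnf144b the lower end of the interval was between −1.33 and −0.66. For these genes a testis fall of about 1.5 times is not excluded. Another 1815 genes that fell by at least 1 in spermatocytes were also called lower in testis. A further 476 were called in neither the testis nor the interaction and so belong to no class.

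The level at P14, which no class used, differed between these groups of genes, with overlap. Among the masked genes, 100 of 103 with a P14 value (97.1%) stood at 1 or more in P14 Het testis, against 895 of 1527 (58.6%) of the genes that fell in both fractions and 83.9% of all genes tested. Such a level was not particular to masked genes. It was also held by 149 of 150 equal falls (99.3%) and by 99.7% of equal rises, classes that are defined below. Binned by that level, 632 of 749 genes (84.4%) under 1 at P14 that fell in spermatocytes were also called lower in P18 testis. The share was 719 of 1009 (71.3%) for genes at 1 to 10 and 176 of 290 (60.7%) for genes at 10 or more. Masked genes made up 3 of 749 (0.401%), 53 of 1009 (5.25%) and 47 of 290 (16.2%) of the same bins. The median fall in spermatocytes became smaller over the bins as well, at −2.22, −1.69 and −1.42, and its part in these shares was not tested. In P14 testis itself 27 genes (0.153%) were called lower and 2 (0.0113%) higher in KO. None of 99 masked genes tested there was among them by limma, with 3 lower at an unadjusted p under 0.05, and their median difference was 0.01. Of 850 genes that fell in both fractions, 25 were called lower at P14 and 471 were lower at an unadjusted p under 0.05, with a median of −0.28.

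**Figure D2:**
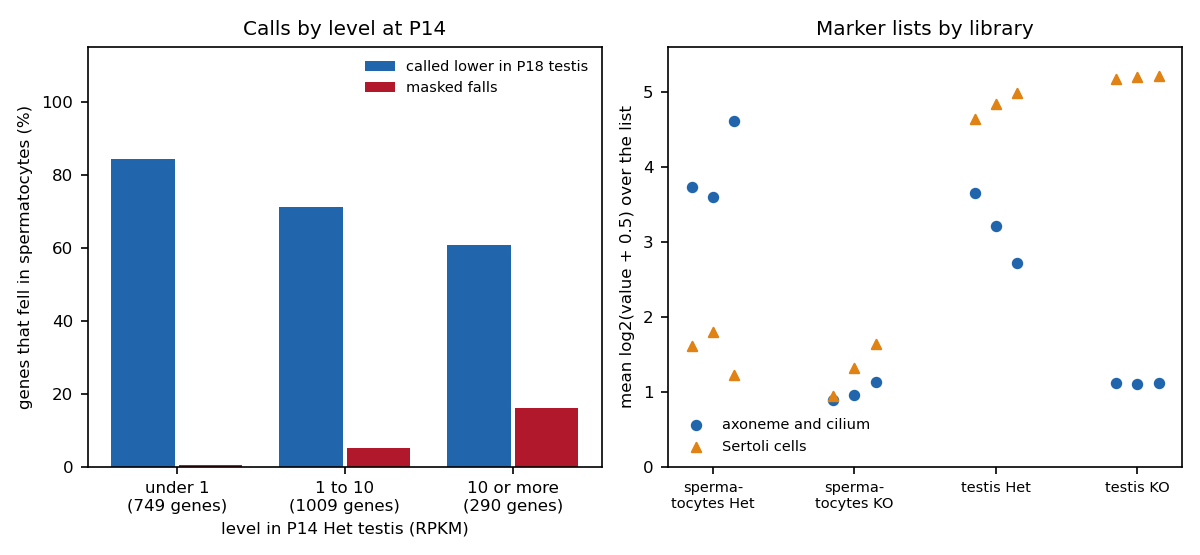
Left, for genes that fell by at least 1 (log2) in KO spermatocytes, the percentage called lower in P18 testis (blue) and the percentage classed as masked (red) by their level in P14 Het testis. The first falls from 84.4% to 60.7% and the second rises from 0.401% to 16.2%. Right, mean log2(value + 0.5) of the axoneme and Sertoli cell lists in each P18 library (points, 3 per group).

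The largest interaction among named masked genes was that of Efhd1 (chromosome 1, 87264363 to 87310839), which encodes a calcium-binding EF-hand protein of mitochondria. It stood at 65.8, 62.5 and 141 in Het and at 1.38, 2.17 and 3.47 in KO spermatocytes. In testis it stood at 95.2, 82.2 and 72.2 in Het and at 57.5, 59.4 and 61.4 in KO. KO spermatocyte libraries thus held little of this RNA while KO testis kept a level close to the lower Het spermatocyte libraries. All KO testis libraries were below all Het testis libraries. The difference was −4.95 ± 0.31 in spermatocytes and −0.47 ± 0.31 in testis (adjusted p = 0.281 in testis). The 95% interval of the testis difference ran from −1.16 to 0.22, so a fall of Efhd1 in testis is not excluded. Its interaction was −4.48 ± 0.44 (adjusted p = 0.00288). The P14 level of Efhd1 was 44.1 ± 1.07 in Het (SD, n = 3) and 46.2 in KO. Its exons overlap those of an antisense gene, Efhd1os, over 12.0% of their length. Efhd1os, which has 76.5% of its exon length in Efhd1, was classed as masked too (interaction −4.73 ± 0.41). Without a stated strand setting, reads of the shared stretch cannot be told apart.

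Enzymes and regulators of sphingolipids were among the masked genes. Cerk (chromosome 15, 86139128 to 86186141), ceramide kinase, stood at 10.8, 10.1 and 19.0 in Het and at 1.57, 1.86 and 2.79 in KO spermatocytes. In testis Cerk stood at 33.0, 37.5 and 38.8 in Het and 38, 40.1 and 43.0 in KO. The testis libraries of the genotypes overlapped, and all 6 were above every spermatocyte library. The interaction of Cerk was −2.54 ± 0.32 (adjusted p = 0.00832). Sgpp1 (chromosome 12, 75714249 to 75735729), sphingosine-1-phosphate phosphatase, went from 10.6, 9.71 and 14 to 2.35, 2.46 and 3.6 in spermatocytes. Its testis levels were 17.5, 19.4 and 19.7 in Het and 21.1, 19.3 and 20.1 in KO, again with overlap. The interaction of Sgpp1 was −1.95 ± 0.22 (adjusted p = 0.00475). Sptssa, a small subunit of serine palmitoyltransferase, and Gba2, a non-lysosomal glucosylceramidase, met the same rule with interactions of −1.85 ± 0.20 and −1.48 ± 0.25. Sptssa and Gba2 were picked after their values were seen, and the 4 genes are a description and not a tested group.

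Paqr8 (chromosome 1, 20890606 to 20939650), a membrane progesterone receptor, had the smallest interaction p of the masked class. Its levels were 4.72, 4.24 and 7.02 in Het and 0.563, 0.559 and 0.619 in KO spermatocytes, and 11.5, 12.2 and 11.1 in Het and 11.4, 11.9 and 11.8 in KO testis. The testis difference of Paqr8 was 0.01 with a 95% interval from −0.31 to 0.33, and the interaction was −2.41 ± 0.21 (adjusted p = 0.00187). Its testis libraries had the same level in both genotypes within a narrow interval. Slc47a2 (chromosome 11, 61301631 to 61342860), a multidrug and toxin extruder, went from 35.8, 29.5 and 55.8 to 1.11, 2.53 and 4.12 in spermatocytes. In testis it stood at 58.3, 58.7 and 64.2 in Het and 66.6, 58.9 and 56.5 in KO. The interaction of Slc47a2 was −3.81 ± 0.46 (adjusted p = 0.00832). Slc41a3 (chromosome 6, 90604725 to 90646412), a magnesium transporter, went from 3.56, 4.47 and 9.0 to 0.614, 0.713 and 0.944 in spermatocytes, with 11.7, 13.0 and 13.1 in Het and 12.6, 12.4 and 13.4 in KO testis. Its interaction was −2.23 ± 0.35 (adjusted p = 0.0224). That call was lost in 7 of 12 fits that left out 1 library each, where the adjusted p reached 0.0789.

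Rnf144b (chromosome 13, 47122656 to 47247991), a ubiquitin ligase gene, went from 8.04, 7.86 and 16.8 to 0.560, 0.603 and 0.791 in spermatocytes. Its testis levels were 16.6, 16.4 and 14.6 in Het and 14.7, 14.5 and 13.5 in KO, and the interaction was −3.07 ± 0.32 (adjusted p = 0.00349). Dusp15, a dual-specificity phosphatase gene (chromosome 2, 152940997 to 152951698), fell from a mean of 10.3 to 0.923 in spermatocytes and stood at 12.9 and 10.6 in testis (interaction −2.56 ± 0.34, adjusted p = 0.0135). The Dusp15 testis libraries of the genotypes did not overlap, although the difference of −0.27 ± 0.24 was not called (adjusted p = 0.428). Both genes showed the same form, a level near the floor in KO spermatocytes beside a tissue level above most Het spermatocyte libraries. Zdhhc12, a palmitoyltransferase gene (chromosome 2, 30090944 to 30093648), fell from 17.2 to 3.05 in spermatocytes and stood at 18.5 and 15.8 in testis (interaction −2.04 ± 0.28, adjusted p = 0.0135). Optn, an autophagy receptor gene (chromosome 2, 5020642 to 5064051), fell from 13.5 to 2.19 in spermatocytes. In testis Optn stood at 19.5, 18.4 and 18.2 in Het and 15, 13.9 and 13.3 in KO, groups that did not overlap although the difference of −0.40 ± 0.21 was not called (adjusted p = 0.187). Gramd1b, which encodes a sterol transfer protein (chromosome 9, 40293233 to 40531383), likewise fell from 18.2 to 1.25 in spermatocytes, with a testis difference of −0.72 ± 0.28 that was not called (adjusted p = 0.0876). Of the 110 masked genes, 58 had testis libraries that did not overlap between genotypes in either direction, against 51.9% of all genes (20.8% with KO below Het). In spermatocytes all 110 did not overlap, against 48.8% of all genes, but a called fall in these libraries was part of the rule that chose them. The interaction calls of Gramd1b and Optn were each lost in 7 of 12 fits that left out 1 library (largest adjusted p = 0.0784 for both).

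Capns1 (chromosome 7, 30186936 to 30198811), the regulatory subunit of calpains, had a higher mean in KO than in Het testis. It went from 19.2, 21.2 and 38.4 to 4.0, 6.89 and 9.98 in spermatocytes, while the testis stood at 75.5, 84.5 and 86.4 in Het and 94.0, 97.2 and 98.5 in KO. The testis libraries of the genotypes did not overlap, but the difference of 0.23 ± 0.29 was not called (adjusted p = 0.574), and the interaction was −2.09 ± 0.41 (adjusted p = 0.0429). The call on Capns1 was lost in 9 of 12 fits that left out 1 library (largest adjusted p = 0.113). Its exons overlap another annotated gene over 8.16% of their length, and those of Zdhhc12 do so over 4.43%.

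**Figure D3:**
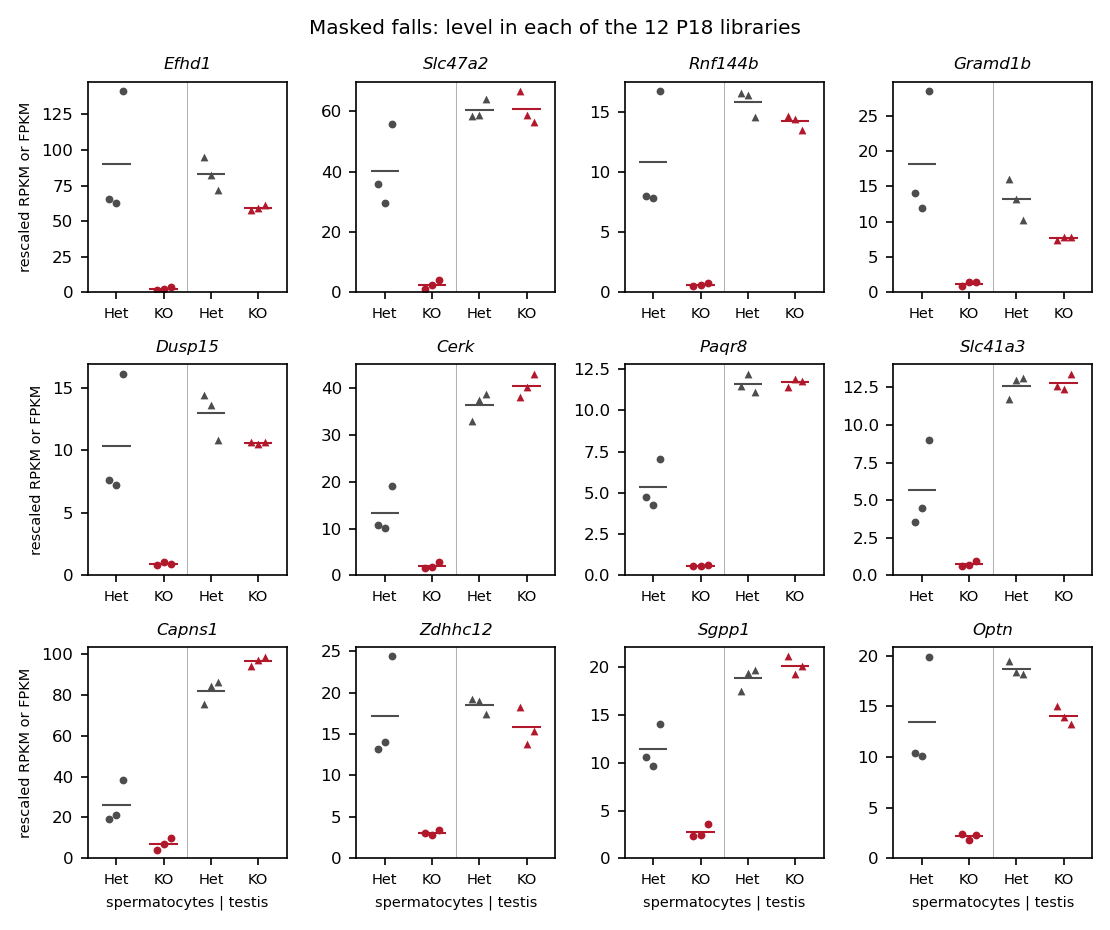
Level (rescaled RPKM or FPKM) of the 12 named masked genes in each P18 library. Points are libraries, bars are means of 3, grey is Het and red is KO, with spermatocytes left and testis right of the line. In every panel the KO spermatocyte libraries lie below all others, and the testis libraries of both genotypes stay well above them.

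Of gene pairs in which a somatic isozyme has a germ-cell paralogue, the somatic member Ppp3ca, a catalytic subunit of calcineurin (chromosome 3, 136670124 to 136937727), was masked. Its levels were 9.91, 10.1 and 16.0 in Het and 3.05, 3.65 and 3.90 in KO spermatocytes, and 17.1, 16.7 and 16.3 in Het and 15.8, 14.6 and 15.2 in KO testis. The testis libraries of the genotypes did not overlap, although the difference of −0.13 ± 0.16 was not called (adjusted p = 0.551). The interaction of Ppp3ca was −1.47 ± 0.22 (adjusted p = 0.0216), a call lost in 7 of 12 fits that left out 1 library (largest adjusted p = 0.0784). Prdx6, a peroxiredoxin gene with a germ-cell paralogue, fell by less than 1 and so was outside the class. It went from 6.87, 8.32 and 9.08 to 4.4, 5.65 and 5.21 in spermatocytes and from 21.9, 26.1 and 27.3 to 28.9, 30.9 and 29.5 in testis. Its interaction was −0.87 ± 0.17 (adjusted p = 0.0423), lost in 11 of those 12 fits (largest adjusted p = 0.117). Of 23 somatic isozymes tested these were the 2 with a called interaction, and of 20 germ-cell isozymes none had one by limma, while 19 fell in spermatocytes and 17 in both fractions. With 1.28% of all genes called for the interaction, none of 20 is near the background. Of all genes 23.1% were lower in spermatocytes, and 2231 of 19930 were lower in both fractions.

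Further masked genes, picked after their values were seen, included enzymes of carbon metabolism and chromatin proteins. Me1, malic enzyme, went from 33.3, 30.5 and 51.2 to 13.6, 16.7 and 19.0 in spermatocytes and stood between 77.1 and 85.7 in all testis libraries (interaction −1.21 ± 0.24, adjusted p = 0.0442). Tpi1, the glycolytic enzyme triosephosphate isomerase, went from 16.1, 15.1 and 23.5 to 4.22, 4.98 and 6.12 in spermatocytes and stood between 14.4 and 21.3 in testis (interaction −1.53 ± 0.25). Elovl2, an elongase of polyunsaturated fatty acids, went from 43.5, 36.5 and 78.3 to 12.3, 13.6 and 15.7 and stood between 58.6 and 68.0 in testis (interaction −1.69 ± 0.31). In none of these 3 genes was the testis difference called, and the testis libraries of the genotypes overlapped for Me1 and Tpi1 but not for Elovl2. Smarca2, a chromatin remodelling ATPase, went from 8.30, 8.11 and 18.3 to 1.93, 2.83 and 3.02 in spermatocytes and stood between 15 and 17.5 in testis (interaction −1.78 ± 0.36, adjusted p = 0.0459). Macroh2a1, a histone variant gene, went from 24.7, 21.3 and 36.5 to 8.50, 9.86 and 10.4 and stood between 18.8 and 23.6 in testis (interaction −1.26 ± 0.23).

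In Het samples 79 of 110 (71.8%) had a higher level in testis than in spermatocytes, against 17.1% of the genes that fell in both fractions and 51.7% of all genes tested. None was on the X or Y chromosome, where 3.51% of the genes tested lie. This was not particular to masked genes, since only 0.0833% of the 2402 genes that fell by at least 1 in spermatocytes lie there. Because a Het level enters each difference, the first of these shares is not independent of the class. Just inside the limit of a fall by 1 in spermatocytes lay Bphl and Usp21 (both −1.01), and just outside it lay Tapbp (−0.98) and Suclg1 (−0.97), which met the other conditions.

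When Het spermatocyte replicate 3, Het testis replicate 3 or other libraries were left out, all masked genes tested kept a negative interaction in each fit. They were chosen for that sign in the same libraries, and the calls varied. Between 16 and 107 of the 110 stayed called when 1 library was left out, the fewest without Het testis replicate 2 or KO testis replicate 3. Without both Het libraries numbered 3, 97 stayed called, and 24 of the 110 were then called lower in testis. The median interaction of all 110 was −1.29 in that fit, in place of −1.51. For 6 of the 12 masked genes plotted by library above, the interaction was called in every fit that left out 1 library. They were Efhd1, Slc47a2, Rnf144b, Cerk, Paqr8 and Sgpp1. With the replicate number as a block, 56 of the 110 stayed called. With a replicate block within each genotype 0 of the 110 did, so these 6 were not called either. Whether the replicate numbers pair the fractions could not be settled.

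Another 73 genes (0.366%) fell in both fractions with a called, deeper fall in spermatocytes. Piwil1 (chromosome 5, 128702524 to 128755474), which encodes the PIWI protein that binds pachytene piRNAs, stood at 198, 174 and 326 in Het and at 8.82, 9.17 and 13.8 in KO spermatocytes. In testis it stood at 128, 95.1 and 67.9 in Het and at 15.6, 18.2 and 16.6 in KO. KO testis thus kept a higher level of Piwil1 than KO spermatocytes, and the groups overlapped in neither fraction. The interaction was −1.91 ± 0.38 (adjusted p = 0.0432), and it was lost in 9 of 12 fits without 1 library (largest adjusted p = 0.117). Of 26 genes of the piRNA pathway and chromatoid body only Piwil1 had a called interaction, where 1.28% of all genes had one. A count of 1 gene is too small to set the list apart. Of the 26, 17 fell in spermatocytes and 16 in testis, where 23.1% and 11.9% of all genes fell.

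Fcgr3 (chromosome 1, 171051174 to 171064935), an Fc receptor gene taken as a marker of macrophages, fell in both fractions, unlike the other macrophage markers tested, of which none was called lower in either. It stood at 12.3, 11.3 and 20.9 in Het and at 0.375, 0.676 and 0.625 in KO spermatocytes, and at 14.4, 11.2 and 7.56 in Het and 2.94, 3.12 and 2.82 in KO testis. The difference was −3.82 ± 0.25 in spermatocytes and −1.70 ± 0.25 in testis, with an interaction of −2.12 ± 0.36 (adjusted p = 0.0266). Over all 18 macrophage markers the summed level was 25.5 to 34.6 in spermatocyte libraries and 77.9 to 123 in testis libraries, and the medians of the 16 tested were 0.25 and 0.57. The call on the interaction of Fcgr3 was lost in 8 of 12 fits without 1 library (largest adjusted p = 0.0878).

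The late prophase programme fell in both fractions, by more in spermatocytes. Of 39 axoneme genes tested, 37 were called lower in both fractions, as were 2231 of all 19930 genes. A negative interaction, the sign of the median of all genes, was found for 38. The list medians were −3.24 in spermatocytes, −2.15 in testis and −0.94 for the interaction, against −0.10 for all genes. None of the 39 passed the test of the interaction by limma, where 1.28% of all genes did. Cfap65, a gene of the sperm flagellum, stood at 54.0, 50.4 and 107 in Het and at 1.38, 2.04 and 2.43 in KO spermatocytes, and at 43.2, 30.3 and 20.5 in Het and 3.32, 3.67 and 3.68 in KO testis (interaction −1.88 ± 0.44, adjusted p = 0.0671). This gap was smaller without the 2 Het libraries that stand apart, and their part in it was not tested. Without both Het libraries numbered 3 the median interaction of the axoneme list was −0.36, with −2.87 in spermatocytes and −2.41 in testis. Of 30 genes of the pachytene and spermiogenic programme, 23 were called lower in both fractions, beside the same 2231 of all 19930 genes. The interaction was negative for 27 (median −0.50 against −0.10 for all genes), and none was called, beside 1.28% of all genes. Ldhc, the germ-cell lactate dehydrogenase, stood at 642, 559 and 1290 in Het spermatocytes and at 575, 386 and 250 in Het testis. It kept more RNA in KO testis (50.9, 49.5 and 47.6) than in KO spermatocytes (15.6, 16.3 and 31.3). Its interaction of −2.30 ± 0.52 was not called (adjusted p = 0.0633).

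Promoter sequence, which no class used, is described here without a test. The 250 bases before the first listed start of each gene were taken from RefSeq (GRCm38.p6), with an entry for 82 of 110 masked genes, 1156 of 1815 genes that fell in both fractions and 11570 of 19930 genes tested. The median number of CpG dinucleotides was 15.5 in masked genes, 10 in genes that fell in both and 15 in all. CAGTTG, the core of MYB sites, was found on either strand in 6 masked promoters (7.32%), in 170 (14.7%) of those that fell in both and in 8.79% of all. GTTGCC, a partial site of RFX factors, was found in 3 (3.66%), 173 (14.97%) and 10.9%. A MYB core followed by the letters CC holds both words and is counted under both. TGACGT, the core of CRE sites, was found in 5 masked promoters (6.10%), in 6.92% of those that fell in both and in 9.71% of all, and TATAAA in 5 (6.10%), 8.91% and 6.59%. A match is a run of letters and no evidence of binding. The counts in masked promoters are small, and apart from the RFX word their shares lie near those of all genes. The sequences of 3 masked genes and of 3 genes that fell in both fractions are shown as examples with and without the searched words. They were picked after their values and words were seen, and they do not follow the CpG medians of their classes. Capitals mark a match to 1 of the 4 words on either strand.
Efhd1: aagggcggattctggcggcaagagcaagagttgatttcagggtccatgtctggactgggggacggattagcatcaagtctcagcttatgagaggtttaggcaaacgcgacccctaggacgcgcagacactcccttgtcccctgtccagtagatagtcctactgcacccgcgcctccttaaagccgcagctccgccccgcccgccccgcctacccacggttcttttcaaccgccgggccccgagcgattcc
Cerk: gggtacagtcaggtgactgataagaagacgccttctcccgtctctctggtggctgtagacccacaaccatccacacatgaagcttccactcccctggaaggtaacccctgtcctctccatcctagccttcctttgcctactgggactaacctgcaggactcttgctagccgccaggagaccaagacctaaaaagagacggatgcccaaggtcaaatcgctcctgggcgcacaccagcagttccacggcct
Sgpp1: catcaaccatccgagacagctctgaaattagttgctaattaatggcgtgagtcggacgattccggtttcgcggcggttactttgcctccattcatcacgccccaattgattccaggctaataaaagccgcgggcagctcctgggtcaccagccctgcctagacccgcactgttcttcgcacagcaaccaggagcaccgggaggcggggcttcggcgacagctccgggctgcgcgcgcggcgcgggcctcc
Piwil1: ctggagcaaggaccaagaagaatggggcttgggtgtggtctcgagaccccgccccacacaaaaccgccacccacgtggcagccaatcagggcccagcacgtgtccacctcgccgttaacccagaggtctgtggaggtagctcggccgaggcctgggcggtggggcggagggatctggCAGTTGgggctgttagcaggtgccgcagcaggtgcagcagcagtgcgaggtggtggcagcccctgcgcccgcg
Hspa2: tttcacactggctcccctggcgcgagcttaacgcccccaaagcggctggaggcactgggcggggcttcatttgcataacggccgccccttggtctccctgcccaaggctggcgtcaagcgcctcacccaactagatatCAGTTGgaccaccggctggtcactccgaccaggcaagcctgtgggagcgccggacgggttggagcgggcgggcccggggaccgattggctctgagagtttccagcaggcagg
Cfap44: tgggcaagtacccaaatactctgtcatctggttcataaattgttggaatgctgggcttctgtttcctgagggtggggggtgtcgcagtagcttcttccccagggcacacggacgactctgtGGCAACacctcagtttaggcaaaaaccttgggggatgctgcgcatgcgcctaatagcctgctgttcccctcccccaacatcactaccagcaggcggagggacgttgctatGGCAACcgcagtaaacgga
The Efhd1 stretch is chr1:87264103-87264352 (plus strand) with 19 CpG, that of Cerk chr15:86186142-86186391 (minus) with 7 and that of Sgpp1 chr12:75735730-75735979 (minus) with 24, and none of these holds any of the 4 words. The Piwil1 stretch, chr5:128735996-128736245 (plus), holds CAGTTG 73 bases before the start. That of Hspa2, a heat-shock protein gene of spermatocytes, is chr12:76404120-76404369 (plus) and holds it 112 bases before the start. Hspa2 went from 440, 364 and 687 to 113, 129 and 146 in spermatocytes and from 287, 242 and 194 to 82.8, 100.4 and 95.3 in testis. The stretch of Cfap44, a flagellar gene, is chr16:44394549-44394798 (plus) and holds GTTGCC on the opposite strand 129 and 19 bases before the start. Cfap44 went from 7.28, 6.85 and 14.3 to 0.30, 0.268 and 0.301 in spermatocytes and from 4.55, 3.03 and 1.9 to 0.468, 0.389 and 0.536 in testis. The interactions of Hspa2 and Cfap44 were −0.53 ± 0.31 and −1.72 ± 0.41 and neither was called (adjusted p = 0.449 and 0.0728).

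Few genes moved in opposite directions. There were 17 (0.0853%) called lower in spermatocytes and higher in testis, of which 4 also met the rule for masked falls, and 4 (0.0201%) with the opposite signs. Ifi27 (chromosome 12, 103434211 to 103440239), an interferon-inducible gene, went from 5.27, 5.51 and 6.32 to 4.21, 3.44 and 4.04 in spermatocytes and from 21.5, 24.0 and 26.7 to 30.6, 30.2 and 32.4 in testis. Its groups overlapped in neither fraction, and the interaction was −0.86 ± 0.15 (adjusted p = 0.0260). Zfp809 (chromosome 9, 22225714 to 22243354), a zinc-finger repressor of retroviruses, went from 5.83, 5.24 and 5.49 to 3.85, 4.60 and 4.47 in spermatocytes. It went from 8.87, 10.7 and 9.60 to 12.1, 12.1 and 12.1 in testis (interaction −0.64 ± 0.13, adjusted p = 0.0462). The call on Zfp809 was lost in all 12 fits without 1 library (largest adjusted p = 0.128), and that on Ifi27 in 7 (0.0939). Among the 17 were 6 Ugt1a genes, which share from 50.3% (Ugt1a6a) to 82.7% (Ugt1a1) of their exon length with other genes, mostly each other, and so count as 1 locus, and Nfkbil1, whose exons overlap neighbours over 16.4% of their length.

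A fall that was larger in testis was rare. Of the 9 genes of this kind (0.0452%), 3 were protein-coding and only 2 had a mean level of at least 1 in all 4 groups. The 1 that met the rule for named genes was Tmem59l (chromosome 8, 70483867 to 70487358), a membrane protein gene. It stood at 20.2, 20.2 and 22.5 in Het and 19.6, 22.8 and 21.3 in KO spermatocytes, and at 16.9, 16.1 and 17.6 in Het and 11.3, 11 and 11.9 in KO testis. The spermatocyte libraries overlapped and the testis libraries did not. The interaction was 0.56 ± 0.11 (adjusted p = 0.0421), and it was lost in 10 of 12 fits without 1 library (largest adjusted p = 0.119). For 5 genes (0.0251%) a rise in spermatocytes was not matched in testis. None of them met the rule for named genes. A called rise in testis with a negative interaction and no rise in spermatocytes was found for 16 genes (0.0803%), of which 11 are among the 17 opposite genes above.

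Equal effects were defined as a call in the same direction in both fractions with a 95% interval of the interaction within −0.58 to 0.58. Of 2231 genes called lower in both fractions, 151 (6.77%, or 0.758% of genes tested) met this, and of 1257 called higher in both, 1021 (81.2%, or 5.12% of genes tested) did. The falls were deeper than the rises (medians −1.83 in spermatocytes and −1.31 in testis against 0.52 and 0.43), and equal falls were the shallow ones among them, with medians of −0.54 and −0.46. The limit of 0.58 was larger than the median rises and the medians of the equal falls, so shallow differences could meet it more readily. The shares of 6.77% and 81.2% are therefore not a like comparison of falls with rises. With a limit of 0.3 there were 3 equal falls and 86 equal rises, and with a limit of 1 there were 627 and 1251. These counts lean on single libraries, with 28 equal falls without KO testis replicate 3 and 622 without Het spermatocyte replicate 3, and 184 equal rises without Het testis replicate 1 and 1460 without Het testis replicate 3. Most equal falls had a higher level in Het spermatocytes, while 17 of 151 (11.3%) had a higher level in Het testis.

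The largest equal fall was that of Rpl10l (chromosome 12, 66283379 to 66284401), an autosomal retrogene of the X-linked ribosomal protein gene Rpl10 that is used in spermatocytes. It stood at 117, 103 and 156 in Het and 54.0, 56.7 and 57.4 in KO spermatocytes, and at 107, 86.6 and 79.4 in Het and 44.0, 46.8 and 40.3 in KO testis. The differences were −1.14 ± 0.15 and −1.04 ± 0.15, and the interaction was −0.09 with a 95% interval from −0.55 to 0.36. KO levels were thus below all Het libraries in both fractions by nearly the same factor. Of 11 retrogenes tested, 5 were equal falls (0.758% of all genes were), with Rpl39l, Cstf2t, Rbmxl2 and Tktl2 besides Rpl10l. Equal here means within the limit, and the interval of Cstf2t, −0.45 to −0.07, did not include 0. Rpl39l went from 120, 113 and 163 to 74.9, 82.1 and 65.7 in spermatocytes and from 92.9, 79.98 and 76.3 to 48.2, 50.7 and 49.7 in testis. Other retrogenes fell much further, such as Pgk2, a phosphoglycerate kinase gene (−4.58 in spermatocytes and −4.45 in testis), whose interaction of −0.13 was measured too loosely for the rule.

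The next equal falls by size were Taf9, Ak6, Pabpc1, Cenpn and Larp7. Pabpc1 (chromosome 15, 36595661 to 36609668), the cytoplasmic poly(A)-binding protein, stood at 433, 355 and 608 in Het and 239, 243 and 266 in KO spermatocytes, and at 336, 289 and 266 in Het and 157, 176 and 171 in KO testis. Its interaction was −0.05 with an interval from −0.56 to 0.46. Larp7 (chromosome 3, 127536714 to 127553349), which binds the 7SK RNA, went from 108, 98.4 and 149 to 68.2, 65.2 and 69.6 in spermatocytes and from 108, 88.3 and 85.8 to 53.1, 56.2 and 51.1 in testis (interaction 0.02, interval −0.42 to 0.46). In both genes the Het and KO libraries did not overlap in either fraction. Cenpn (chromosome 8, 116921730 to 116941507), a centromere protein, went from 26.2, 22.2 and 38.2 to 17.6, 14.4 and 14.7 and from 18.8, 16.1 and 15.2 to 8.94, 9.63 and 8.47 (interaction 0.01, interval −0.52 to 0.55). Taf9, a subunit of TFIID, and Ak6, an adenylate kinase, fell by 0.94 and 0.91 on the log2 scale in spermatocytes and by 0.91 and 0.86 in testis. Taf9 and Ak6 share 73.8% and 59.1% of their exon length with other genes, mainly each other, so their reads cannot be told apart.

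Equal rises had other members. Ctcfl (chromosome 2, 173093609 to 173119525), a testis-specific relative of the insulator protein CTCF, stood at 7.85, 7.13 and 6.88 in Het and 12.2, 12.3 and 13.0 in KO spermatocytes, and at 3.23, 3.36 and 3.44 in Het and 6.17, 7.02 and 7.17 in KO testis. Its interaction was −0.18 with an interval from −0.44 to 0.09. An antisense gene overlaps 5.32% of the exon length of Ctcfl. E2f1 (chromosome 2, 154559407 to 154569892), a cell-cycle transcription factor, rose from 16.4, 14.5 and 11.7 to 25.2, 22.7 and 24.3 in spermatocytes and from 5.88, 7.05 and 8.83 to 10.8, 11.1 and 13.3 in testis (interaction 0.08, interval −0.39 to 0.55). Both genes had higher levels in spermatocytes than in testis, and no KO library overlapped a Het library. Mpv17l2, a gene of the mitochondrial inner membrane (chromosome 8, 70758649 to 70760946), rose by 0.75 ± 0.09 and 0.70 ± 0.09. Anp32a, an acidic nuclear phosphoprotein (chromosome 9, 62341293 to 62378812), rose by 0.76 ± 0.13 and 0.64 ± 0.13. At P14 the 979 equal rises tested had a median difference of 0.05 and the 148 equal falls one of −0.16, against 0.00 for all genes. None was called at P14 by limma, with 42 of the rises higher and 56 of the falls lower at an unadjusted p under 0.05.

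**Figure D4:**
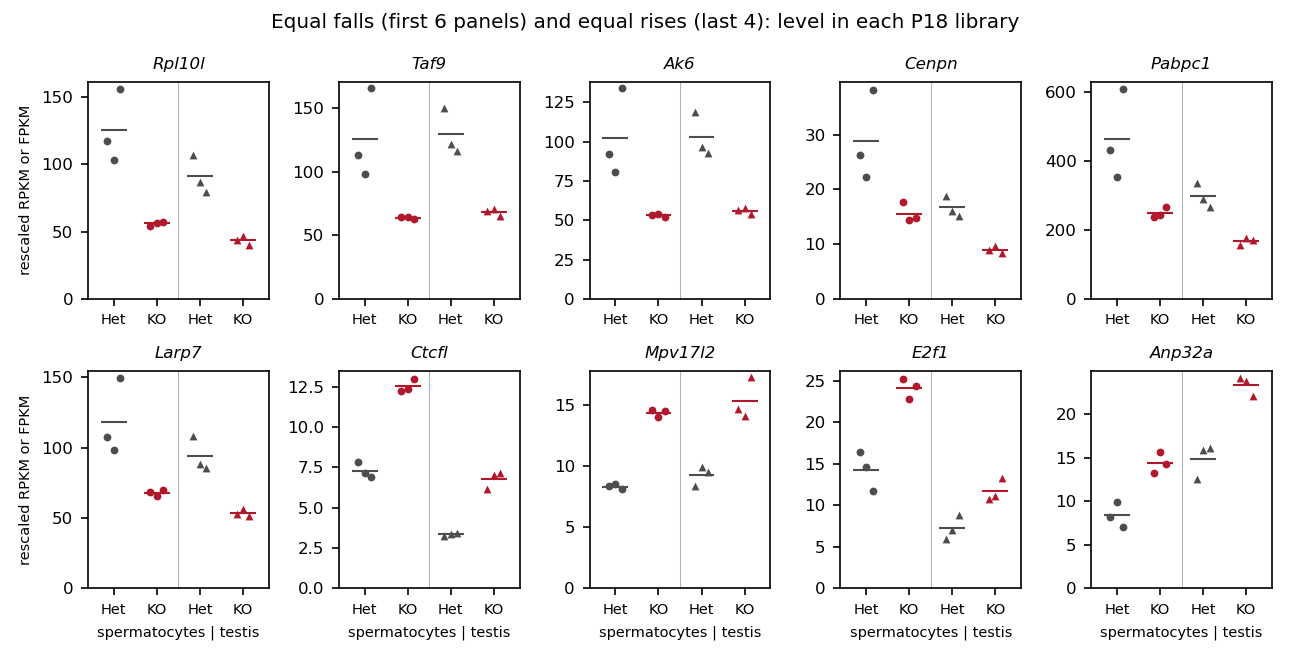
Level (rescaled RPKM or FPKM) of 6 equal falls (Rpl10l to Larp7) and 4 equal rises (Ctcfl to Anp32a) in each P18 library. Points are libraries, bars are means of 3, grey is Het and red is KO, with spermatocytes left and testis right of the line. KO lies below Het in both fractions for the first 6 genes and above it for the last 4.

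Genes of the sex chromosomes, which are silenced in pachytene spermatocytes, made up 7.35% of the 1021 equal rises, against 3.51% of the genes tested and none of the 151 equal falls. The share depended on the limit, with 7.27% of 1251 equal rises at a limit of 1 and 1.16% of 86 at a limit of 0.3. Of 43 silenced sex chromosome genes tested, 14 were equal rises (5.12% of all genes were), with list medians of 0.42 in both fractions against 0.01 and 0.13 for all genes. Hprt, a purine salvage enzyme, stood at 42.6, 40.2 and 34.3 in Het and 62.7, 53.6 and 50.8 in KO spermatocytes, and at 25.0, 32.3 and 34.9 in Het and 42.3, 44.1 and 40.2 in KO testis (interaction 0.05, interval −0.36 to 0.45). Pgk1, the X-linked counterpart of Pgk2, went from 2.74, 2.82 and 2.77 to 4.85, 4.26 and 4.12 in spermatocytes and from 12.4, 16.5 and 16.5 to 21.2, 20.7 and 20.5 in testis. KO lay above Het in every library of both genes. Ribosomal protein genes gave 14 equal rises of 54, beside the same 5.12% of all genes, with medians of 0.22 in spermatocytes and 0.19 in testis beside 0.01 and 0.13. Scaling bears on rises of this size. When trimmed means were taken within each fraction the number of equal rises was 343, the medians of all genes were −0.04 in spermatocytes and 0.03 in testis, and 334 of the 343 were among the 1021.

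**Figure D5:**
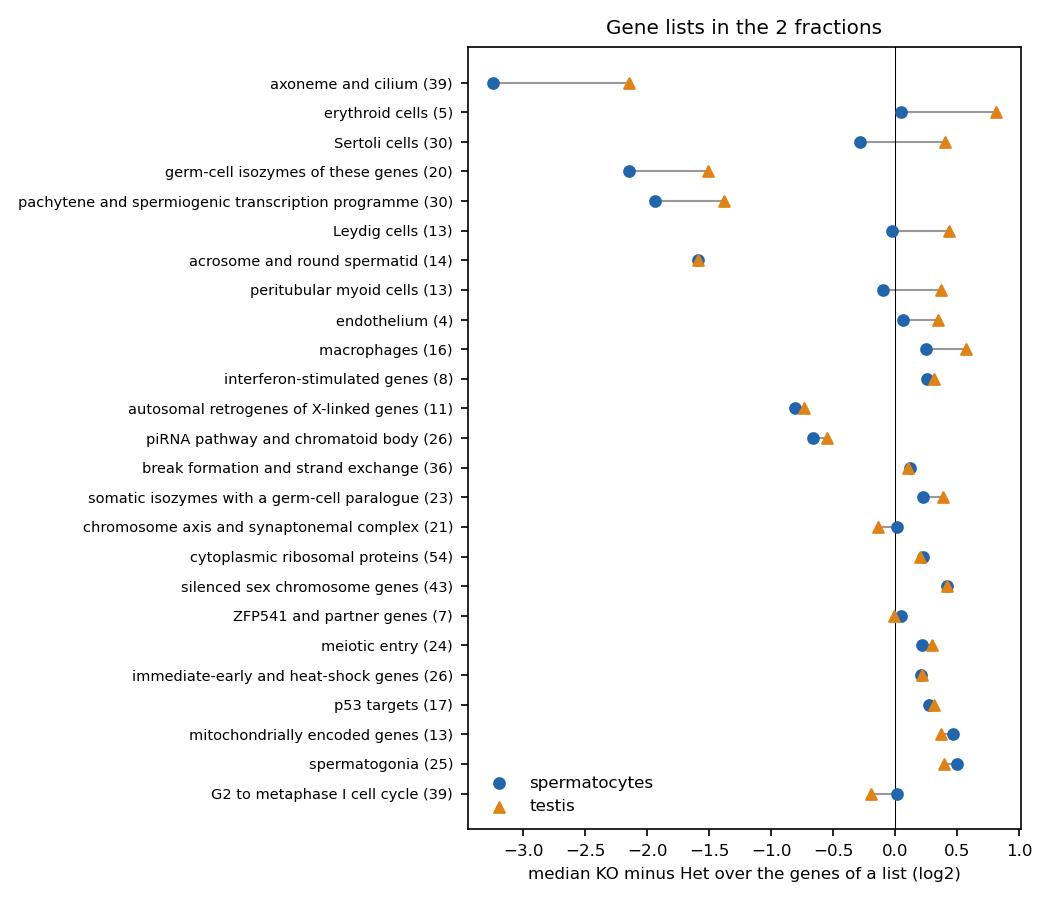
Median log2 difference of KO from Het over the tested genes of each list (number in brackets) in P18 spermatocytes (blue circles) and P18 testis (orange triangles), ordered by the median interaction. Lists of late germ cells lie far to the left with the spermatocyte value lowest, and Sertoli, Leydig and myoid lists are near or below 0 in spermatocytes and above 0 in testis.

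Markers of Sertoli, Leydig and myoid cells leaned to negative interactions, without a called one. All 30 Sertoli cell markers tested had a negative interaction (median −0.71, against −0.10 for all genes), and none was called by limma, beside 1.28% of all genes. Their median difference was 0.40 in testis and −0.28 in spermatocytes, beside 0.13 and 0.01 for all genes. In testis 2 were called higher, beside 8.69% of all genes. In spermatocytes 1 was called higher and 1 lower, beside 17.0% and 23.1%. Calls within a fraction were thus not more frequent than among all genes. Sox9, the Sertoli cell transcription factor, had a mean of 1.56 in Het and 1.21 in KO spermatocytes against 34.1 and 45.3 in testis. The summed level of the Sertoli markers in Het testis was 2201, 2631 and 3014, and in KO testis 3464, 3457 and 3456. Leydig and myoid markers gave 12 of 13 and 13 of 13 negative interactions, with medians of 0.43 and 0.37 in testis. The summed level of these markers in the tissue thus moved with genotype, and its part in the testis differences of the genes above was not tested. For the masked genes the median testis difference was −0.10, below the 0.13 of all genes. The genes of the G2 to metaphase I cell cycle leaned the other way. Of 39 tested 9 had a negative interaction, with medians of 0.01 in spermatocytes and −0.20 in testis. None was called by limma, beside 1.28% of all genes. Plk1, a mitotic and meiotic kinase, went from 29.0, 35.7 and 28.7 to 46.2, 49.5 and 46.8 in spermatocytes and from 14, 12.5 and 12.3 to 10.3, 12.8 and 13.1 in testis, with an interaction of 0.71 ± 0.16 that was not called (adjusted p = 0.0558).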

How the data were processed

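RNA-seq values of 18 libraries were used as deposited, 1 table per library. Per the file headers the values are FPKM for testis at P18 and RPKM in the other libraries, as made by the authors. The submitters' processing notes list edgeR 3.28.1, featureCounts, STAR 2.6.1a, CASAVA 1.9 and the build GRCm38, with no role or order; annotation and strand setting are not given in the sources used here. The low RPKM and FPKM values were whole multiples of 1 read, which gave the depth of 9.26 to 21.1 M reads.

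The 12 P18 libraries were put on 1 scale with TMM factors (30% and 5% trimmed). A gene entered the test where 3 or more libraries reached a value of 1. The test was made on log2(value + 0.5) in limma 3.58.1 (trend, robust) in R 4.3.3, as 4 group means with contrasts, Benjamini-Hochberg adjustment over all genes and a threshold of 0.05. A pseudocount understates the change of low genes. P14 libraries were fitted apart in the same way. Symbols held by several rows (107 at P18, at most 0.300% of summed values) were left out. Tables and figures used matplotlib 3.10.9, pandas 2.3.3, numpy 2.4.6 and Python 3.11.15, and the test was tried on simulated data.

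Named genes were Zfp541 and its partner genes, then protein-coding genes of each class with a mean of at least 5 and no overlap of Het and KO libraries, taken by the largest interaction (masked, opposite, deeper in testis) or the largest difference (equal), and up to 2 list members by interaction p. Genes named outside this rule are said to be picked after their values were seen, or are examples from the lists. Classes, members and lists were chosen with earlier results of these data known. The alternatives were other pseudocounts, filters and scalings, library weights, voom on recovered reads, replicate blocks and leaving out each library; leaving out both Het libraries numbered 3, and keeping only genes at 1 or more in all 4 groups, were chosen after seeing the data.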

Additional observations from a re-analysis of the deposited data

Results flagged for a closer look

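For 256 genes the difference between the fractions was itself tested and called by limma, and the named ones among them are given here because of that test. The interaction was −4.48 for Efhd1, −3.81 for Slc47a2, −3.07 for Rnf144b, −2.61 for Gramd1b, −2.56 for Dusp15 and −2.54 for Cerk. It was −2.41 for Paqr8, −2.23 for Slc41a3, −2.09 for Capns1, −2.04 for Zdhhc12, −1.95 for Sgpp1 and −1.91 for Optn. Outside the masked class it was −2.12 for Fcgr3, −1.91 for Piwil1, −0.87 for Prdx6, −0.86 for Ifi27, −0.64 for Zfp809 and 0.56 for Tmem59l, and within it −1.47 for Ppp3ca.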

How the results depend on the processing

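No named gene's interaction changed sign with a call under any alternative. The 110 masked genes kept a negative interaction in every fit in which they were tested, but they were chosen for that sign in the same libraries. The counts of calls moved much more. The numbers below are, in order of naming, genes called for the interaction, called within a fraction, and in each class. With 1 library left out there were 0 to 23 higher and 20 to 332 lower interactions (the fewest without Het testis replicate 2, where 315 and 2185 passed an unadjusted p under 0.05 by limma). Spermatocytes then had 2390 to 4418 higher and 3971 to 4552 lower genes, and testis 293 to 2592 higher and 1371 to 3070 lower. Masked falls numbered 16 to 105, those with the bound on the testis fall 11 to 83, equal falls 28 to 622 and equal rises 184 to 1460. Opposite genes numbered 2 to 31 (lower in spermatocytes) and 1 to 8, deeper falls 4 to 126 in spermatocytes and 0 to 12 in testis, and unmatched rises 0 to 19 in spermatocytes and 2 to 28 in testis.

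On the values as deposited there were 58 higher interactions, 5322 higher genes in spermatocytes, 1047 higher in testis, 11 opposite genes higher in spermatocytes, 24 deeper falls in testis, 42 rises in spermatocytes, 466 equal falls and 416 equal rises. Median-of-ratios scaling gave 7 higher and 79 lower interactions, 47 masked falls (28 with the bound), 4 deeper falls in testis and 18 in spermatocytes, and 7 rises in testis. Trimmed means within fractions gave 563 higher genes in testis, 9 opposite genes lower in spermatocytes, 8 rises in testis, 300 equal falls and 343 equal rises. A pseudocount of 0.1 gave 375 lower interactions, 188 masked falls (101 with the bound), 9 and 2 opposite genes, 116 deeper falls and 9 rises in spermatocytes. A pseudocount of 1 gave 133 lower interactions, 68 masked falls, 5 deeper falls in testis and 32 in spermatocytes, and 10 rises in testis.

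Without a filter, with more genes tested, there were 81 lower interactions, 864 higher genes in testis, 46 masked falls (28 with the bound), 3 and 1 opposite genes, 15 deeper falls in spermatocytes, 98 equal falls and 470 equal rises. The stricter filter gave 0 opposite genes higher in spermatocytes and 2 deeper falls in testis. Genes at 1 or more in all 4 groups gave 3 higher interactions, 1416 lower genes in testis, 0 opposite genes higher in spermatocytes, 2 deeper falls in testis and 35 in spermatocytes, and 1 rise in spermatocytes. Library weights gave 414 lower interactions, 3262 higher genes in testis, 110 masked falls with the bound, 26 opposite genes, 154 deeper falls in spermatocytes, 32 rises in testis and 285 equal falls. Voom on recovered reads gave 5 higher interactions, 3058 higher genes in testis, 198 masked falls (140 with the bound), 28 and 2 opposite genes, 4 deeper falls in testis, 2 rises in spermatocytes and 25 in testis. Without both Het libraries numbered 3 there were 19 higher interactions, 3657 higher genes in testis, 54 opposite genes, 114 deeper falls in spermatocytes, 9 rises in spermatocytes and 50 in testis, 792 equal falls and 1634 equal rises. The cause of these shifts was not tested.

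Whether replicate numbers pair the samples could not be settled. Of 18 pairs 2 correlated above 0.1 (range −0.37 to 0.16), and in 8 of the 18 the same number gave the best match. Most of these pairs join Het with KO libraries, which cannot come from the same animal. Across the fractions, libraries of the same number correlated at −0.20, 0.02 and −0.37 in Het and at 0.10, 0.01 and 0.04 in KO. With 3 libraries a group, these values cannot exclude shared animals. With the replicate number as a block there were 5 higher and 82 lower interactions, 57 masked falls, 3 deeper falls in testis and 12 in spermatocytes, and 2 rises in spermatocytes and 6 in testis. With a replicate block within each genotype 0 higher and 0 lower interactions were called by limma, and 344 and 2045 passed an unadjusted p under 0.05. The number of libraries, 3 a group, limits the precision, and detection limits were not computed.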
